A study of Mus musculus with 7 samples.

Results

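Genes that copy DNA and genes that carry out mitosis were followed in cells sorted from mouse skin tumours, as 22 mitosis genes and 12 DNA replication genes that had been listed by name. Of these 34 genes, 33 were measured, among 18193 genes in all, and Ccnb1 was not analysed here. Each gene was read from 1 probe set, the brightest on average of those annotated to that gene alone. Every level is a log2 value, so a difference of 1 stands for a 2-fold change in signal, and levels were compared between arrays but not between genes.

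RNA came from tumour cells positive for CD34 and Epcam, isolated by flow cytometry from skin tumours of mice treated with the carcinogen DMBA and the growth promoter TPA. There were 4 arrays of carcinomas, which are malignant, and 3 of papillomas, which are benign. In the sample titles the carcinoma arrays are numbered 1, 2 and 3 and the papilloma arrays 1 and 2, while 1 further array of each tumour type bears the tag GFP, which the labels do not explain. The descriptions name Nr2f2, a nuclear receptor, ahead of the tumour type for all 7 arrays alike, and the sources used here give no genotype, strain, age or time of treatment. Carcinomas were compared with papillomas, the contrast that the design names, and the 2 tagged arrays were compared with the 5 untagged arrays. Since no label ties an array to its own animal, the p-values speak for the spread among these arrays alone, which may be technical.

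A dividing cell copies its DNA once and then separates the copies. Replication starts when Cdc6 helps to load the Mcm helicase onto origins, and E2f1 with the E-type cyclins turns on the genes for this step, for the sliding clamp Pcna and for enzymes that make nucleotides. Mitosis genes are switched on later, when Cdk1 with its cyclins, the Aurora and Polo kinases, kinesin motors and kinetochore proteins build the spindle. In stratified skin, division is a property of the basal layer, and in skin tumours it extends to more of the epithelium.

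The short motifs known from such genes were looked for in RefSeq promoter windows of the mouse assembly GRCm38.p6, from 250 bases before the start of the gene to 50 bases after it. A window was held for 26 of the 33 measured members. Both strands were searched for the cell cycle homology region, written TTTGAA or TTCGAA, through which late cell cycle genes are repressed and then induced. The CCAAT box, bound by NF-Y, was searched as CCAAT. Sites of the E2F type were searched as TTCCCGC or TTCGCGC or TTGCCGC or TTGGCGC, and none of these motifs contains another. The 6 stretches below show the 150 bases before the start for 4 mitosis and 2 replication members whose values are described later, in lower case with every match in capitals.
Cdk1: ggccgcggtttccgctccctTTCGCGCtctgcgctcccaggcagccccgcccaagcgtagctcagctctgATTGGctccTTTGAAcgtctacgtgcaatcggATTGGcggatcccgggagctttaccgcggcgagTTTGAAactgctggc
Top2a: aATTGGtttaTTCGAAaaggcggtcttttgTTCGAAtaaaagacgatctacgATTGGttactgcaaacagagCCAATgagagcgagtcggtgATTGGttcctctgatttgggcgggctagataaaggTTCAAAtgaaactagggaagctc
Kif11: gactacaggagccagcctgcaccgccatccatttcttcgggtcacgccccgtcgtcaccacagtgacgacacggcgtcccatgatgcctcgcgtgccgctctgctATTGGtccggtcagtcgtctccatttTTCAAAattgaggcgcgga
Birc5: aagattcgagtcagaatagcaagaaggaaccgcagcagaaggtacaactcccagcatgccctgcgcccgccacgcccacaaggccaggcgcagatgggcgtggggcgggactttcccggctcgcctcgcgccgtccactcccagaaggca
Mcm6: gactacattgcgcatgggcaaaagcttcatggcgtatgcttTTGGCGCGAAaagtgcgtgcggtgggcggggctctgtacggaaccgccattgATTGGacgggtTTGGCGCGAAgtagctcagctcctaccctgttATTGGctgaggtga
Pcna: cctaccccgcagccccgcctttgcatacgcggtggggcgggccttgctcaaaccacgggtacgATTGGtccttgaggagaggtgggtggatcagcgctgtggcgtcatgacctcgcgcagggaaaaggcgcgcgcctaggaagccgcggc
They lie on chr10:69352913-69353062 (minus strand) for Cdk1, chr11:99024190-99024339 (minus strand) for Top2a, chr19:37376232-37376381 (plus strand) for Kif11, chr11:117849087-117849236 (plus strand) for Birc5, chr1:128359706-128359855 (minus strand) for Mcm6 and chr2:132253181-132253330 (minus strand) for Pcna, each directly upstream of the annotated start. Kif11 has its homology region at position -19, counted back from the start, and a CCAAT box read on the other strand at -45. In Cdk1 a homology region at -15 and another at -71 were found, with CCAAT boxes at -48 and -80 and an E2F-type match at -130. Each of the 2 capital runs in Mcm6 that begin at -109 and -46 joins 2 E2F-type matches that overlap on opposite strands. Pcna shows 1 CCAAT box and Birc5 no match in this stretch, which says only that these letters are not there.

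A homology region was found in 13 of 16 mitosis windows, 81.2%, and in 1 of 10 replication windows, 10%, beside 19.4% of the windows of all 27025 genes in the promoter table and 15% of those of genes measured here. CCAAT occurred in 87.5% of mitosis windows, in 60% of replication windows, in 37.9% of all windows and in 38.2% of those of genes measured here. E2F-type letters stood in 12.5% of mitosis windows, 50% of replication windows, 9.69% of all and 14.2% of those of genes measured here. The mitosis share thus lies between these 2 backgrounds. These shares are descriptions of letters in the windows and were not tested.

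The arrays had medians of 5.38 to 5.51 over all probe sets and upper quartiles of 7.32, in papilloma 2, to 7.79, in papilloma 1, and the 2 tagged arrays stood apart in their content. Here and below, rose and fell mean called in limma between tagged and untagged arrays, at an adjusted p under 0.05. Over all genes, 11.9% were called higher and 7.93% lower. Endothelial markers rose in the tagged arrays for 15 of 15 genes, with a median difference of 5.48. Their summed level was 164.0 to 164.1 in the tagged pair against 80.3 to 87.0 in the untagged arrays. Fibroblast markers rose for 12 of 14 genes and leukocyte markers for 7 of 14, with summed levels of 143.0 to 156.0 against 80.1 to 103.9, and 89.3 to 96.5 against 72.7 to 80.3. In each of these lists the difference was above 0 for 13 of 14 genes. Of 13 keratinocyte markers, 8 fell and all 13 had a difference below 0, and their summed level was 134.2 to 136.3 against 146.9 to 157.2. The sorting antigen Epcam itself had a difference of -2.40 in the tagged arrays, which passed the test. In the untagged arrays endothelial markers had medians of 4.85 to 5.87, near the median of all probe sets, and keratinocyte markers 11.33 to 11.97, as the epithelial label asks. Of 9 common reference genes 1 fell in the tagged arrays and 6 had a difference below 0, at a median of -0.27. The control probe sets for the 3' and 5' ends of Gapdh differed by 3.19 in both tagged arrays and by -0.04 to 0.06 in the untagged ones. Such probe sets are used to judge the integrity and amplification of RNA.

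No difference between carcinomas and papillomas was detected for any mitosis or replication gene. No gene of the 18193 passed an adjusted p of 0.05 in limma, a background of 0%, with a smallest adjusted p of 1, while 112 genes had an unadjusted p below 0.05 and none of them was a member. This fit had no term for the tag, so the gap between tagged and untagged arrays is part of the spread behind its standard errors. With the tag as a covariate limma called 0 genes too, and 331 genes had an unadjusted p below 0.05. The medians were then 0.055 for mitosis and 0.074 for replication genes. The 21 mitosis genes had a median difference, carcinoma minus papilloma, of 0.14, with 13 genes above 0 and 8 below, and the 12 replication genes a median of 0.08, with 9 above and 3 below, next to -0.02 for all genes. The groups overlapped for every measured member, and they were apart for only 1.42% of all genes, so the overlap does not set the members off. In the untagged arrays alone 2 of 33 members were apart, Cenpa lower and Mcm2 higher in carcinomas, beside 12.3% of all genes. Both gaps were very narrow. Cenpa had 10.477 in carcinoma 3 and 10.482 in papilloma 2, and Mcm2 had 9.782 in carcinoma 3 and 9.775 in papilloma 1. On another probe set of Mcm2 the groups overlapped, with 9.51 in carcinoma 3 and 9.75 in papilloma 1. In bulk RNA of this kind, fewer dividing cells and less RNA per dividing cell cannot be told apart.

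Array medians show the overlap. Over the mitosis genes the median level was 8.79, 9.50 and 8.73 in carcinomas 1, 2 and 3 and 8.46 in carcinoma GFP, a mean of 8.87 ± 0.45 (SD, n = 4). In papillomas 1 and 2 it was 9.53 and 8.28, and in papilloma GFP 8.49, a mean of 8.77 ± 0.67 (SD, n = 3). The highest and the lowest of the 7 values thus both belong to untagged papillomas. Over the replication genes the carcinomas had 9.86, 10.05, 10.18 and 9.32 in the same order, 9.85 ± 0.38 (SD, n = 4), and the papillomas 10.00, 9.74 and 9.03, 9.59 ± 0.50 (SD, n = 3). By this median both tagged arrays lay below every untagged array, although single genes did not all do so and the summed level of the 12 genes was 109.1 in carcinoma GFP and 108.2 in carcinoma 3.

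Among mitosis genes the differences ran from -0.34 for Bub1b, a spindle checkpoint kinase, to 0.70 for Cenpe, a kinesin at the kinetochore, each with a standard error of 0.51 to 0.54. In the untagged arrays alone they ran from -0.37 to 0.90. Mki67, the antigen by which dividing cells are stained, had levels of 10.58, 11.22 and 10.70 in carcinomas 1 to 3 and 10.99 in carcinoma GFP, and of 11.18, 8.81 and 10.79 in papillomas 1, 2 and GFP. A single array, papilloma 2, was low, and the other papillomas lay among the carcinomas, so the difference of 0.61 had a standard error of 0.56, and it was 0.84 in the untagged arrays. Top2a, the topoisomerase that untangles sister DNA, measured 10.56, 11.33, 10.70 and 10.27 in the carcinomas, the tagged array last, and 11.37, 9.95 and 10.17 in the papillomas. Its extremes were papilloma 1 and papilloma 2, at a difference of 0.21 with a standard error of 0.41. Cdk1, the kinase that drives entry into mitosis, stood at 10.34, 10.99, 10.37 and 9.66 in carcinomas and 11.05, 10.29 and 9.78 in papillomas. Cdc20, which activates the anaphase-promoting complex, stood at 11.18, 11.40, 11.13 and 10.52 against 11.37, 11.09 and 10.89. Within each tumour type both genes were lowest in the tagged array, and their tumour differences were -0.04 and -0.06.

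Replication genes varied less, with differences from -0.19 for Ccne2, an E-type cyclin, to 0.31 for Mcm3, a helicase subunit, and standard errors of 0.19 to 0.40, and in the untagged arrays alone from -0.43 to 0.23. Rrm2, the small subunit of the enzyme that makes deoxynucleotides, had levels of 11.44, 11.77, 11.24 and 11.12 in carcinomas 1, 2, 3 and GFP and of 11.55, 11.12 and 11.00 in papillomas 1, 2 and GFP. Mcm4, another helicase subunit, had 10.72, 11.01, 10.98 and 10.65 against 10.67, 11.07 and 10.44, and Mcm5 had 11.30, 11.18, 10.83 and 10.87 against 11.17, 11.07 and 10.75. For each of these 3 genes the ranges of the tumour types overlapped and the lowest value was in papilloma GFP. Tyms, which makes thymidylate, read only 4.28 to 5.47 over all arrays, close to or below the median of all probe sets, so its differences carry little information.

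The direction of these medians turned with single arrays. Without papilloma 1 the mitosis median was 0.53, while it was -0.05 without papilloma 2, -0.06 without carcinoma 2 and -0.12 without papilloma GFP. The replication median ran from -0.06 without papilloma GFP to 0.23 without papilloma 1. In the untagged arrays alone the medians were 0.02 for mitosis and 0.01 for replication. Between the tagged pair they were 0.08 and 0.21.

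**Figure D1:**
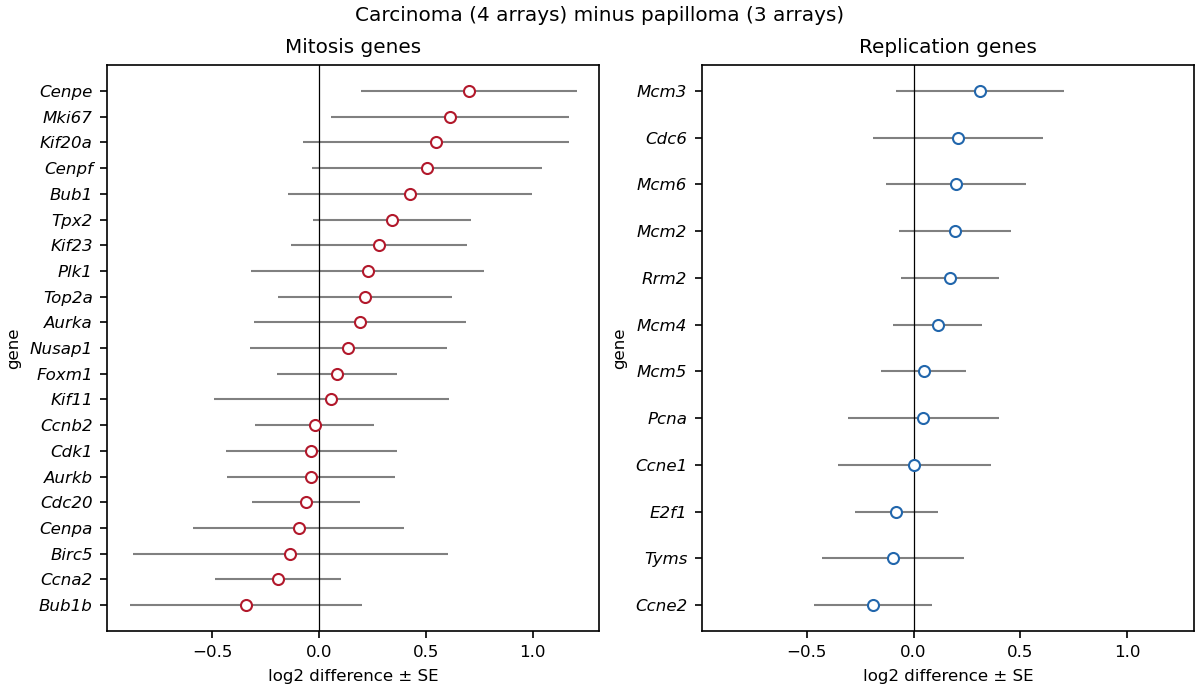
Fitted difference between carcinoma and papilloma arrays (log2, x axis) for each measured gene (y axis), as circles with bars of 1 standard error, for mitosis genes on the left and replication genes on the right. All circles are open, since no gene passed an adjusted p of 0.05, and they run from -0.34 (Bub1b) to 0.70 (Cenpe).

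Arrays of 1 tumour type differed among themselves, and of the 2 sets the mitosis genes did so more. Papilloma 1 was above papilloma 2 in 20 of 21 mitosis genes, 95.2%, by a median of 0.93, and in 11 of 12 replication genes, 91.7%, by a median of 0.35. Over all genes papilloma 1 was higher in 54.4%, by a median of 0.06, and over genes above the median level in 73.2%, by a median of 0.38. Carcinoma 2 was above both other untagged carcinomas in 17 of 21 mitosis genes and 9 of 12 replication genes, beside 39.3% of all genes. Across the 5 untagged arrays the highest and lowest level were 1.10 apart in the median mitosis gene, 0.66 in the median replication gene, 0.73 in the median of all genes and 0.89 in that of genes above the median level. Each array is a single sample, so these are values of arrays and not of groups, and no test of them was made.

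The mitosis genes did not all follow this order. Mki67, Cenpf and Cenpe, the latter 2 both kinetochore proteins, were 2.37, 2.32 and 2.17 higher in papilloma 1 than in papilloma 2. The kinesins Kif20a and Kif23, which act as the cell divides, were higher by 2.02 and 1.57, and Tpx2, a spindle assembly factor, by 1.46. By contrast Cenpa, the histone H3 form of centromeres, was 10.56 in papilloma 1 and 10.48 in papilloma 2. Birc5, or survivin, of the chromosomal passenger complex was 10.77 and 10.52. Foxm1, a transcription factor of late cell cycle genes, read 7.43 and 7.44 on the set used, but another bright set of it was 0.86 higher in papilloma 1. Papilloma 2 was thus low in some mitosis genes and level with papilloma 1 in others. Among replication genes Cdc6 differed most, by 0.87, and Mcm4 was the 1 gene lower in papilloma 1, with a difference of -0.41, which a second bright set of it turned to 0.49. These 2 arrays also differed in their upper quartiles, and the part of that in these values was not tested.

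**Figure D2:**
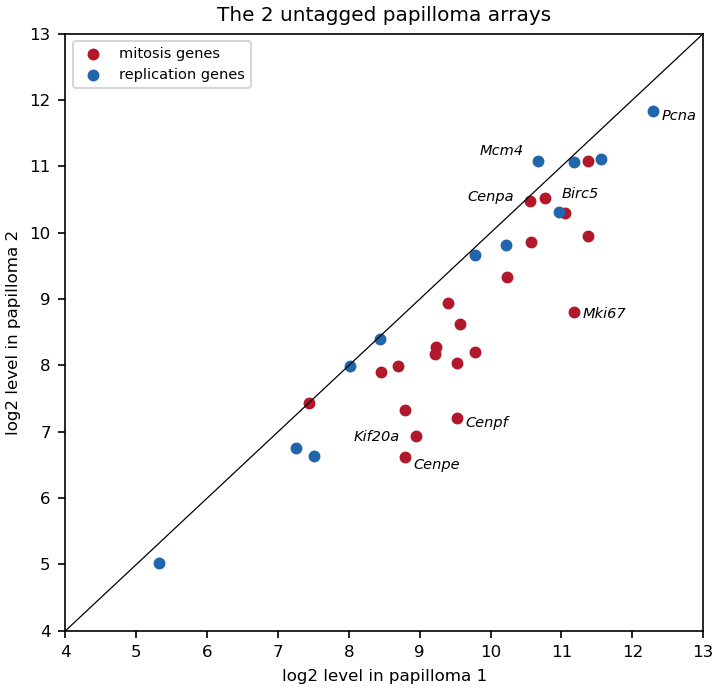
Level (log2) of each measured gene in papilloma 1 (x axis) and papilloma 2 (y axis), with mitosis genes in red and replication genes in blue and a line where both are equal. Nearly all points lie below the line, Mki67, Cenpf, Cenpe and Kif20a by more than 2, while Cenpa and Birc5 lie near it.

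**Figure D3:**
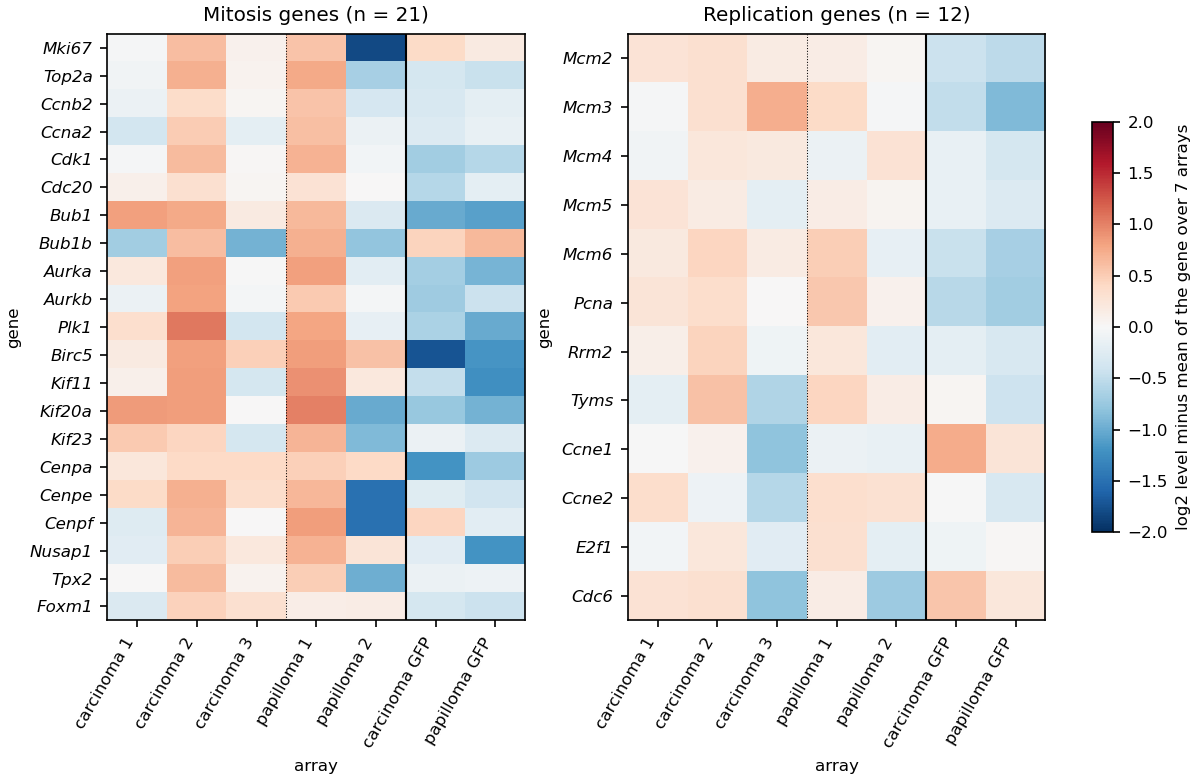
Level of each measured gene (rows) in each array (columns) as the deviation from the mean of the gene over 7 arrays, in log2 units from blue (lower) to red (higher), with untagged carcinomas, untagged papillomas and the tagged arrays from left to right. Carcinoma 2 and papilloma 1 are red over most mitosis genes, papilloma 2 is darkest blue in Mki67, Cenpf and Cenpe, and the tagged arrays are blue in Birc5, Bub1 and Cenpa.

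In the GFP-tagged arrays 6 of the 33 genes fell and none rose. They were the mitosis genes Birc5, Cenpa and Bub1, with differences (tagged minus untagged) of -2.06, -1.36 and -1.44, and the replication genes Mcm3, Pcna and Mcm2, with -0.95, -0.88 and -0.65. That is 3 of 21 mitosis genes and 3 of 12 replication genes beside 7.93% of all genes that were called lower in this comparison, and 0 members beside 11.9% called higher. Among genes above the median level, as nearly all members are, 14.2% were called lower, so the mitosis share of 14.3% lies at that background. With the tumour type as a covariate limma called 3601 genes, and the split of 2159 higher against 1442 lower became 2134 against 2257 after renewed quantile normalization and 2285 against 1032 after centring on common reference genes. The median difference was -0.55 for mitosis genes, with 18 of 21 below 0, and -0.32 for replication genes, with 10 of 12 below 0, beside -0.05 for all genes. Both medians stayed below 0 under both of these scalings. Keratinocyte markers moved down and endothelial, fibroblast and leukocyte markers up in the same arrays, and the part of that, and of the 3' to 5' difference, in these values was not tested.

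Birc5 had levels of 8.22 and 8.76 in the tagged carcinoma and papilloma, against 10.12, 10.76 and 10.42 in carcinomas 1 to 3 and 10.77 and 10.52 in papillomas 1 and 2. The tagged arrays lay clearly below all others, at a difference of -2.06 (standard error 0.22, adjusted p = 0.00141 in limma). Cenpa measured 8.89 and 9.35 in the tagged arrays, against 10.31, 10.47 and 10.48 in the untagged carcinomas and 10.56 and 10.48 in the papillomas, which gave -1.36 (standard error 0.17, adjusted p = 0.00244 in limma). The untagged levels of Cenpa spanned a narrow range, but the mean of all its probe sets gave -0.45, which did not pass. Bub1, a checkpoint kinase at the kinetochore, measured 7.90 and 7.83 in the tagged arrays, against 9.73, 9.67 and 9.10 in the untagged carcinomas and 9.56 and 8.63 in the papillomas. No untagged array reached down to the tagged ones, and the difference was -1.44 (standard error 0.31, adjusted p = 0.0200 in limma). Kif11, the kinesin that pushes the spindle poles apart, measured 7.30 and 6.56, against 7.88, 8.61 and 7.43 in the untagged carcinomas and 8.69 and 7.99 in the papillomas. On this set its groups did not overlap either, yet the difference of -1.20 (standard error 0.41) had an adjusted p of 0.0917 in limma. On another bright set of Kif11 the difference was -1.01 and the groups overlapped, with 7.42 in carcinoma GFP and 7.29 in papilloma 2. Cdk1, whose values are given above, had a difference of -0.90 and an adjusted p of 0.0699.

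The kinases Aurka and Plk1, which build the spindle poles, had differences of -1.12 and -1.13 that did not pass. Tagged arrays lay below every untagged array in 11 of 21 mitosis genes and 5 of 12 replication genes, where 19.9% of all genes did so. They lay above every untagged array in no mitosis gene and in 1 replication gene, Ccne1, where 21% of all genes did so. The widely used marker Mki67 had a difference of 0.46 with a standard error of 0.60, Bub1b one of 0.74 with 0.54 and Cenpf one of 0.21 with 0.59. Levels of mitosis genes in the tagged arrays were thus low for some and within the untagged range for others.

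Of the replication genes, Mcm3 measured 9.34 and 8.95 in the tagged carcinoma and papilloma, against 9.82, 10.15 and 10.57 in carcinomas 1 to 3 and 10.22 and 9.81 in papillomas 1 and 2. Pcna, which holds the polymerase on DNA, measured 11.20 and 11.05, against 12.01, 12.11 and 11.77 and against 12.29 and 11.83. Mcm2, the helicase subunit that binds histones, measured 9.20 and 9.10, against 9.90, 9.94 and 9.78 and against 9.78 and 9.67. In all 3 the tagged arrays were the lowest, with differences of -0.95 (standard error 0.25, adjusted p = 0.0394), -0.88 (0.20, adjusted p = 0.0257) and -0.65 (0.15, adjusted p = 0.0278) in limma. Mcm6, a further helicase subunit, measured 10.04 and 9.82 against 10.68, 10.91 and 10.64 and against 10.97 and 10.32, and its difference of -0.76 had an adjusted p of 0.0552. Ccne1, the E-type cyclin that starts replication, measured 9.29 and 8.81 in the tagged arrays against 8.54, 8.63 and 7.75 in the untagged carcinomas and 8.44 and 8.39 in the papillomas. On the set used it was thus highest in the tagged arrays, but its difference of 0.71 had an adjusted p of 0.145 in limma. E2f1, the activator of such genes, had a difference of -0.05 on the set used. On a dimmer set of E2f1 the difference was -0.72, with both tagged arrays below every untagged array. On its dimmest set the difference was 0.22.

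These calls rest on few arrays. Of all genes 861 were called without carcinoma GFP and 1462 without papilloma GFP. Without carcinoma GFP the 1 mitosis gene called was Birc5 (adjusted p = 0.0436 in limma), and without papilloma GFP Birc5 and Cenpa were called, with adjusted p of 0.0154 and 0.0195. The number of mitosis genes called was 7 without papilloma 2 and 5 without carcinoma 3. No replication gene was called without either tagged array or without carcinoma 2, and 1 was called without carcinoma 1 (Mcm3) and 1 without papilloma 1 (Pcna). Within carcinomas alone the tagged array differed by a median of -0.67 in mitosis genes and -0.24 in replication genes, and within papillomas by -0.58 and -0.53. A test of the interaction, of whether the tumour difference depends on the tag, called 0% of all genes, with 389 of 18193 and none of the members at an unadjusted p below 0.05.

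**Figure D4:**
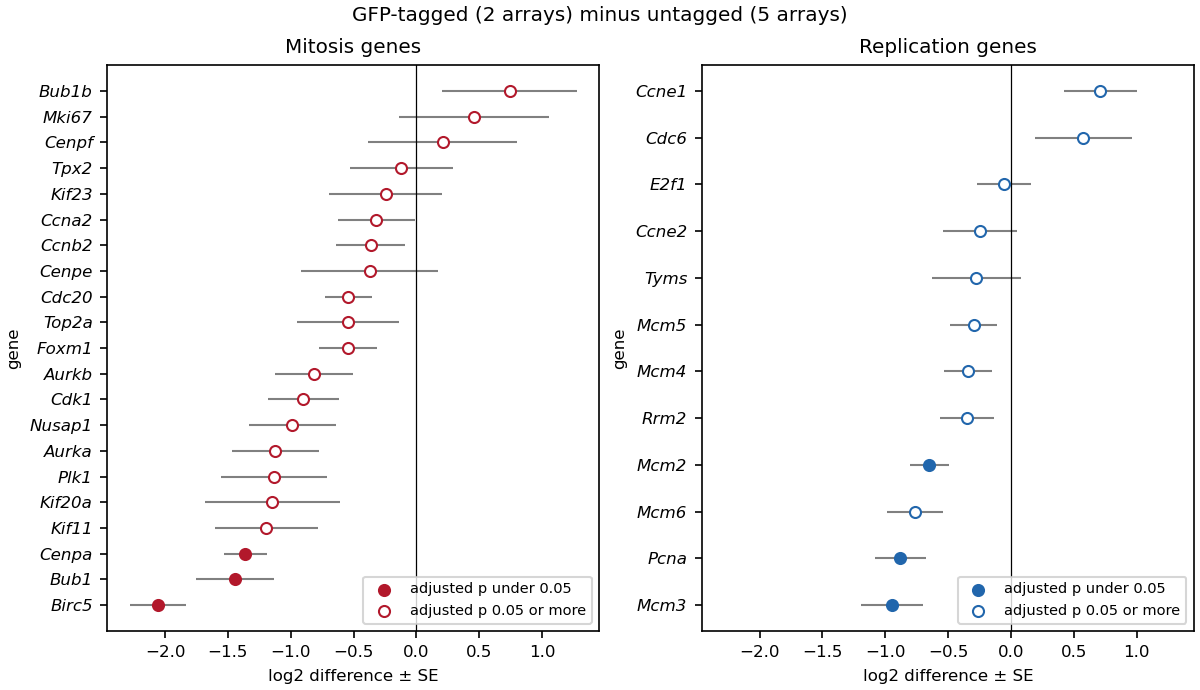
Fitted difference between the 2 tagged and the 5 untagged arrays (log2, x axis) for each measured gene (y axis), with bars of 1 standard error and filled circles for an adjusted p under 0.05. Birc5, Bub1 and Cenpa on the left and Mcm3, Pcna and Mcm2 on the right are filled, and most other circles lie below 0.

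The size of the tag difference depended on which probe set was read. For 15 members more than 1 probe set lay above the median gene level of 6.64, and the differences of their sets spanned a median of 0.52. Rrm2 ranged from -0.37 to -1.74 and Mcm5 from -0.30 to -1.34, and in both the brightest set gave the smallest difference. In Ccne1 the 2 sets pointed opposite ways, 0.70 and -0.74, and in Tpx2 they gave -0.16 and 0.31. Of 19 bright sets that were not used, 17 were lower in the tagged arrays, at a median of -1.01 over the 19. Bub1b ranged from 0.10 to 0.77, Ccna2 from -0.30 to -1.02, Cdc20 from -0.53 to -1.22, Cenpe from -0.44 to -1.01 and Mcm4 from -0.35 to -0.74. Over these bright sets, differences of Ccne1 and Tpx2 are therefore uncertain in direction, and those of the other 7 genes named above in size. Sets below the median gene level were left out here, although a set of Kif11 gave 0.48 and sets of E2f1 gave -0.72 and 0.22.

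**Figure D5:**
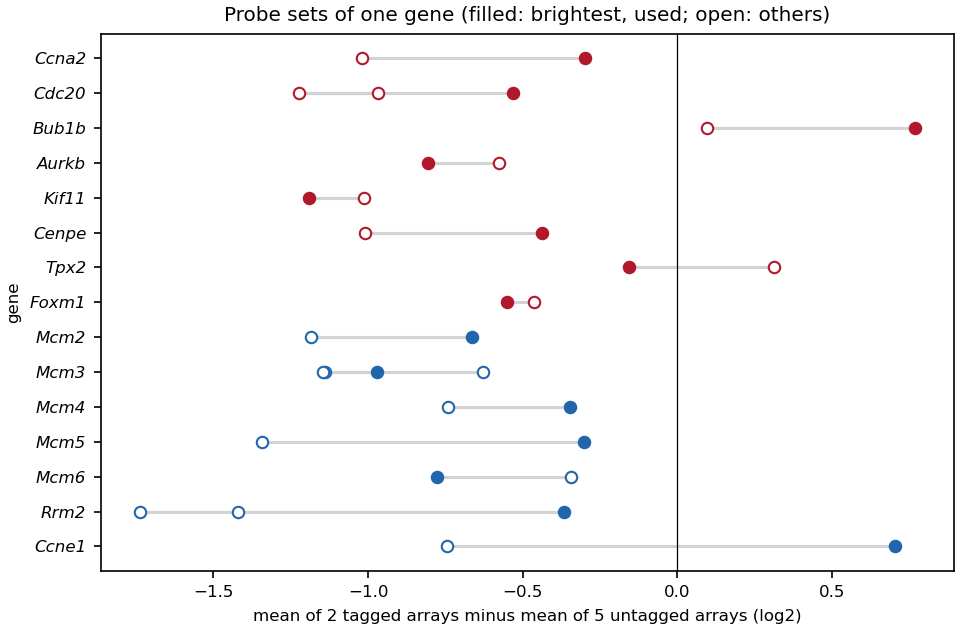
Mean of the 2 tagged arrays minus mean of the 5 untagged arrays (log2, x axis) for every probe set above the median gene level, for the 15 genes (y axis) that have more than 1, with mitosis genes in red, replication genes in blue and the set used in the text filled. Of the 19 open circles 13 lie to the left of the filled one of their gene, and only Ccne1 and Tpx2 have sets on both sides of 0.

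Other genes of the same pathways were read from lists that hold no member. Like the members, these lists were chosen with earlier results of these data known, so they are no independent support. Of 49 further replication genes 15, or 30.6%, fell and 1 rose in the tagged arrays, with a median of -0.45. These counts, and those of the next lists, stand beside the 7.93% called lower and 11.9% called higher of all genes, and 14.2% called lower of genes above the median level. Pola1, of the polymerase that primes replication, and Tk1, which salvages thymidine, fell by 1.70 each, and Rfc4 and Rfc3, which load Pcna onto DNA, had differences of -1.54 and -1.53. Of 60 further mitosis genes 14, or 23.3%, fell and none rose, with a median of -0.56. Ube2s and Ube2c, the enzymes that pass ubiquitin to the targets of the anaphase-promoting complex, had differences of -3.75 and -2.49. Cenph, a kinetochore protein, fell by 2.16, and Cdca3, which promotes entry into mitosis, had a difference of -2.004. Among 22 regulators of the G1 phase 5, or 22.7%, fell and 1 rose. The growth regulator Myc and the G1 cyclin Ccnd2 had differences of -1.52 and -1.30, and E2f3, an activating E2F factor, rose by 1.56. E2f5, a repressive E2F factor, had a difference of 1.495 that did not pass (adjusted p = 0.0795 in limma).

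Between tumour types none of these further genes passed the test. The medians of carcinoma minus papilloma were 0.01 for replication, 0.06 for mitosis and 0.07 for G1 regulators. Ccnd2 had a difference of 0.86 with a standard error of 0.54, Clspn, a mediator of the replication checkpoint, one of 0.63 with 0.44, and Smc4, a condensin subunit, one of 0.51 with 0.47. Exact two-sided permutation tests of the single members doubled the smaller tail, and so computed they allow no p below 0.0571 for tumour type, from 35 splits, and 0.0952 for the tag, from 21 splits. Over the 66 such tests the smallest Benjamini-Hochberg adjusted p was 0.370.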

How the data were processed

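Total RNA of 7 sorted samples was amplified and hybridised to Affymetrix mouse arrays, and the authors deposited log2 values normalized with RMA, per the labels' protocols. RMA and affy are named in the submitters' processing notes, and the sources used here give no version of them. The log2 scale was read from the values. The table holds 45101 probe sets, of which 34945 have 1 gene symbol in the platform annotation and are no controls, 932 have several and 9211 are not listed. Each gene was taken from its brightest single-symbol probe set and dim genes were kept. The number of arrays limits the precision.

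Groups came from the tumour type and the tag in the titles. Contrasts were fitted with limma 3.58.1 (lmFit and eBayes, R 4.3.3) on all 18193 genes, adjusted by Benjamini-Hochberg with a threshold of 0.05. The procedure was tested on simulated data. For the tumour contrast those data held no tag difference, so they cannot show how the tumour fit behaves with it. Tumour type had no covariate, the tag had tumour type as covariate, and the interaction of both was fitted. Exact permutation tests used scipy 1.17.1, figures matplotlib 3.10.9 and Python 3.11.15. Up to 4 members per set with the largest difference and 4 with the highest mean are given in every array, and up to 4 genes of each further list with the largest difference. The members and lists were chosen with earlier results of these data known. Alternatives were other choices of probe set, scaling, variance model, array weights, covariates, a replicate block and leaving out each array.

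Replicate numbers and the tag occur in both tumour types. Deviations from the group means correlated across genes at 0.476 between carcinoma 1 and papilloma 1, at 0.194 between the arrays with number 2 and at 0.861 between the tagged arrays, all above the limit of 0.1 for treating them as pairs. Carcinoma 2 and papilloma 1, with different numbers, gave 0.683, so the numbers may mark no pairs. Every untagged carcinoma passed the limit with every untagged papilloma, and the arrays with number 2 gave the lowest of these values. A tagged and an untagged array gave -0.687 to -0.501. The group means include the tagged arrays, so the limit cannot tell pairs from arrays that share the tag or lack it. The fit with the replicate block called 0 genes too, with medians of 0.18 for mitosis and 0.12 for replication genes. Carcinoma 3 has no papilloma of its number, and these medians are the same as those with carcinoma 3 left out.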

Additional observations from a re-analysis of the deposited data

Results flagged for a closer look

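Cenpa, the centromeric histone, measured 8.89 in carcinoma GFP, far from the 10.31 to 10.48 of the other 3 carcinoma arrays, and the gap was 0.893 of the whole range. It was the 1 value that stood out so among 35 levels looked at in the carcinoma arrays. Chance alone gives such a value in about 1 of 20 groups, so 1 among 35 is no more than chance gives. Carcinoma GFP is a tagged array and Cenpa fell in the tagged arrays, so this value is no separate result. Papilloma GFP was also below the untagged papillomas, at 9.35.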

How the results depend on the processing

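No gene was called between tumour types under any of the 17 alternatives, the replicate block included, in which the medians were 0.18 for mitosis and 0.12 for replication genes and 500 genes had an unadjusted p below 0.05. Single differences between tumour types changed sign in up to 7 of 21 mitosis and 6 of 12 replication genes.

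The tag medians stayed below 0 in all 15 alternatives, from -0.86 to -0.47 for mitosis genes. For replication genes they ran from -0.53 to -0.24 when an array was left out and reached -0.75 when probe sets marked _s_ or _x_, which may bind several transcripts, were set aside. Of all genes 861 (without carcinoma GFP) to 3955 (without papilloma 2) were called with an array left out and 6819 with array weights. Mitosis members called for the tag numbered 8 after renewed quantile normalization, 13 with array weights, 5 without covariate and 1 to 7 with an array left out. Replication members called numbered 5 without such probe sets, 1 after centring on reference genes (Mcm3), 6 with array weights and 0 to 4 with an array left out. Birc5 was called in 15 of 15 alternatives, Cenpa and Bub1 in 13, Mcm3 in 11, Pcna in 10 and Mcm2 in 8. The interaction gave 3 genes with a trended and robust variance, Gbp8, Prox1 and Scn3a, named after their values were seen. The cause of these shifts was not tested. Of the single tag differences under the alternatives 35 newly passed and 20 no longer passed the threshold. Precision is limited by the 2 tagged arrays and by each gene's spread, and for dim genes such as Tyms by their signal.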
